A study of Rattus norvegicus with 18 samples.

Results

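Interferon-induced antiviral genes were followed in the VTA (ventral tegmental area), a midbrain region whose dopamine neurons serve reward, in adult male Sprague Dawley rats of wild-type genotype. The genes are 33 named symbols, all 33 of which were found among the 38445 genes counted: 32 by their symbol and Ddx58 by its older name. All 18 rats were fed a liquid diet of the Lieber-DeCarli type. In the withdrawal group the diet held 9% v/v ethanol and was stopped 24 h before the tissue was taken (6 rats, numbered 13 to 18). In the chronic ethanol group the same ethanol diet was given and tissue was taken at 0 h of withdrawal (6 rats, 7 to 12). Control rats had the diet without ethanol (6 rats, 1 to 6). Each rat gave 1 stranded mRNA library. Values are CPM, counts scaled by the size of each library. In bulk tissue, fewer cells of a type and less RNA per cell cannot be told apart.

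As background, cells that detect foreign nucleic acid make interferons, which bind receptors on the same and neighbouring cells. Receptor-bound kinases then activate STAT proteins, STAT2 among them, which join IRF9 in a complex that binds the interferon-stimulated response element in promoters. The genes switched on in this way include the sensors themselves, the transcription factor IRF7, enzymes that destroy viral RNA, proteins that hold virus particles, and the ubiquitin-like protein ISG15. In the brain, neurons and glia respond to interferon, and microglia and vessel cells respond readily.

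Promoter windows of 6 of the genes are shown because they hold the core of that response element, GAAA and GAAA parted by any 2 bases, on either strand (TTTC and TTTC where the match is on the other strand), which is in capitals. The windows are from RefSeq (build GRCr8), run from 250 bases before to 50 bases after the start of each gene and are written 5′ to 3′ on the gene's own strand. They are the 6 tested genes with a match that had the highest counts per length. Ifi27 lies at chr6:128355062-128355361 (plus strand), Bst2 at chr16:18254918-18255217 (minus), Irf7 at chr1:205799974-205800273 (minus), Ifi44 at chr2:243303791-243304090 (minus), Oasl2 at chr12:47383136-47383435 (minus) and Gbp2 at chr2:234005477-234005776 (plus). In Bst2 the 2 matches overlap.
Ifi27: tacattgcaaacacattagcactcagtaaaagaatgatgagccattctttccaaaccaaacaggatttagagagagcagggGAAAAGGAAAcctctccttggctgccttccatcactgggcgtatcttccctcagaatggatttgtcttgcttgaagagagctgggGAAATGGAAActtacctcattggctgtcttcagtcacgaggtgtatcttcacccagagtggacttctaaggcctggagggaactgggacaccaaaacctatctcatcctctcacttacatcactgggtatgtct
Bst2: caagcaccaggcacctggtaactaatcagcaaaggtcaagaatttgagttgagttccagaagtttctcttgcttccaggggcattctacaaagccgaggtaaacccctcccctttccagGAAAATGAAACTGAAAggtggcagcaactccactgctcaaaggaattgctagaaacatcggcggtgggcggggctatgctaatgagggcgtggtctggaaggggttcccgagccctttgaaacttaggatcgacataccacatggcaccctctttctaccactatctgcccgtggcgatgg
Irf7: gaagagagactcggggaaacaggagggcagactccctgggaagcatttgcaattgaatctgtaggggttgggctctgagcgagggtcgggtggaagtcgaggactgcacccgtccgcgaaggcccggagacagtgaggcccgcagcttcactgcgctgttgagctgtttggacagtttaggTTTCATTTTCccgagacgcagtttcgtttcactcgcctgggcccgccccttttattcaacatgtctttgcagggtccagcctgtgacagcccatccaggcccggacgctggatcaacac
Ifi44: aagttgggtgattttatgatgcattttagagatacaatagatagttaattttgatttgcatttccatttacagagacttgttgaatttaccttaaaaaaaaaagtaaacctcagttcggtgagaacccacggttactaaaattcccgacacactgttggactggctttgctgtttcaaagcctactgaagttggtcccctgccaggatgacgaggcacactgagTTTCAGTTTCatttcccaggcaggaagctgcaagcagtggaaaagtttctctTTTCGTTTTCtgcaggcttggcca
Oasl2: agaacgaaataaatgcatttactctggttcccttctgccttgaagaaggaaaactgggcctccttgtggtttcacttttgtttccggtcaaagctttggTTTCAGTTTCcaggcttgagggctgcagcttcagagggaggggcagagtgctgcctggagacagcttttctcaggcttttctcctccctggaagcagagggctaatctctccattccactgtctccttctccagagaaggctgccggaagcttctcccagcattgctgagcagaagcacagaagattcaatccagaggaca
Gbp2: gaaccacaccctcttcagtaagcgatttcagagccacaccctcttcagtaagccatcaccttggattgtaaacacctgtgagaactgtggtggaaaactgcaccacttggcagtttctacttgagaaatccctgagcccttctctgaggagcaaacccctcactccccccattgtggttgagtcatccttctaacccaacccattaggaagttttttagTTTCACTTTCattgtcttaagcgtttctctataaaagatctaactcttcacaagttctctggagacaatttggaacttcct

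A window was found for 24 of the 33 genes. The motif occurred in 15 of these 24 windows (62.5%), against 1312 of all 33469 rat windows of the same length (3.92%). The windows of Stat2, Cmpk2, Irf9, Herc6, Cd274, Trim25, Parp9, Oasl and Mx1 did not hold these letters. A match describes the letters of the window and is not evidence of binding.

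Libraries held 29.6 to 42.2 M counts in withdrawal, 29.9 to 45.1 M in chronic ethanol and 32.2 to 43.1 M in control, with each rat a single library. A count of 0 allows up to 3 counts (95% limit), which stood for 0.0665 to 0.101 CPM and covers counting error only. The VTA identity was checked with 12 dopamine neuron markers, whose summed level spanned 397 to 2931 CPM in withdrawal, 464 to 3393 in chronic ethanol and 1135 to 3515 in control, lowest in withdrawal rat 17, where Slc6a3 was at 2.56 CPM and Foxa2 at 0, and in ethanol rat 8. Control rat 5 and ethanol rat 8 stood apart in 8 hindbrain markers (69.1 and 57.4 CPM, against at most 4.95 CPM in the other 16 rats). Withdrawal rat 13 stood apart from the other 17 rats in 11 pineal gland markers, which summed to 18956 CPM there and to at most 13.7 CPM elsewhere, and in 8 choroid plexus markers (638 CPM, against at most 29.9). Control rat 3 stood apart in 11 meningeal fibroblast markers (810.4 CPM, against at most 390.3 CPM in the other rats). It also stood apart in 6 border macrophage markers (47.6 CPM, against at most 20.4 CPM in the other rats). The medians and calls over the genes are therefore given with and without rats 3 and 13, and also without rats 5, 8, 13 and 17. For single genes, values without rat 3 or rat 13 are given for some genes only.

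Of the 33 genes, 31 passed the filter on low counts and were tested. Ifit1, an RNA-binding inhibitor of translation (gene 56824, Rnor_6.0 chr1:252944105-252946170, plus strand), reached 12.4 CPM in withdrawal rat 17, 0.958 CPM in ethanol rat 9 and 2.54 CPM in control rat 1, and lay at or below 0.115 CPM in the other 15 rats. It overlaps Ifit1bl and Lipa, which lie on the opposite strand, and counting was stranded. Oas3, a sensor of long double-stranded RNA, had at most 0.241 CPM in withdrawal, 0.0472 in chronic ethanol and 0.0944 in control. It overlaps Oas2 on the same strand, so that pairs from shared exons may be missing from both counts. Of the tested genes, 26 passed the filter level in all 18 libraries. Slfn1 passed it in 5 withdrawal, 0 chronic ethanol and 4 control rats, so counts over the 31 genes are descriptions.

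The 31 tested genes spanned a wide range of abundance. Ifi27, a mitochondrial protein induced by interferon, was the most abundant per length, with a mean level of 139 CPM per kb of exon in withdrawal, 87.9 in chronic ethanol and 116 in control. Stat2 came next, at 14.7 CPM per kb in withdrawal, 13.8 in chronic ethanol and 15.1 in control. The least abundant tested gene over all rats was Ddx60, at 0.358 CPM per kb in withdrawal, 0.0721 in chronic ethanol and 0.116 in control.

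Between withdrawal and chronic ethanol, the comparison that asks what differs when the ethanol diet ends, the interferon-induced genes lay higher in withdrawal. The log2 change, on which 1 is a 2-fold difference, was above 0 for 31 of 31 tested genes (53.3% of all 17637 tested genes), with a median of 1.33 and a range of 0.05 to 3.83, beside a median of 0.02 over all genes. The genes varied together across the rats of all groups. Pearson's r of a gene with the mean of the others was over 0.8 for 25 of the 31, and ran from 0.130 to 0.988. Counts of these genes, here and in the other comparisons, are therefore not counts of separate observations. The shares of all genes beside them are a background and not a test. For 14 genes every withdrawal rat lay above every chronic ethanol rat (0.805% of all genes): Irf7, Irf9, Ifih1, Oas1a, Oas2, Oasl2, Bst2, Herc6, Parp9, Parp14, Ifi27, Ifi44, Slfn1 and Xaf1. Of these, Slfn1 had passed the filter on low counts only through withdrawal and control rats, so its separation is a description. EdgeR called 0 of the 31 genes at an adjusted p under 0.05 (0% of all genes), and the adjusted p ran from 0.0709 to 0.758. At an adjusted p under 0.10, 17 genes were called, all higher in withdrawal (0.471% of all genes were called, 0.312% higher), and 28 had an unadjusted p under 0.05, all higher (9.38% of all genes). DESeq2 called 27 of the 31 higher at 0.05, where it called 0.923% of the genes it tested higher. It did not call Stat2, Cmpk2, Trim25 and Cd274.

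**Figure D1:**
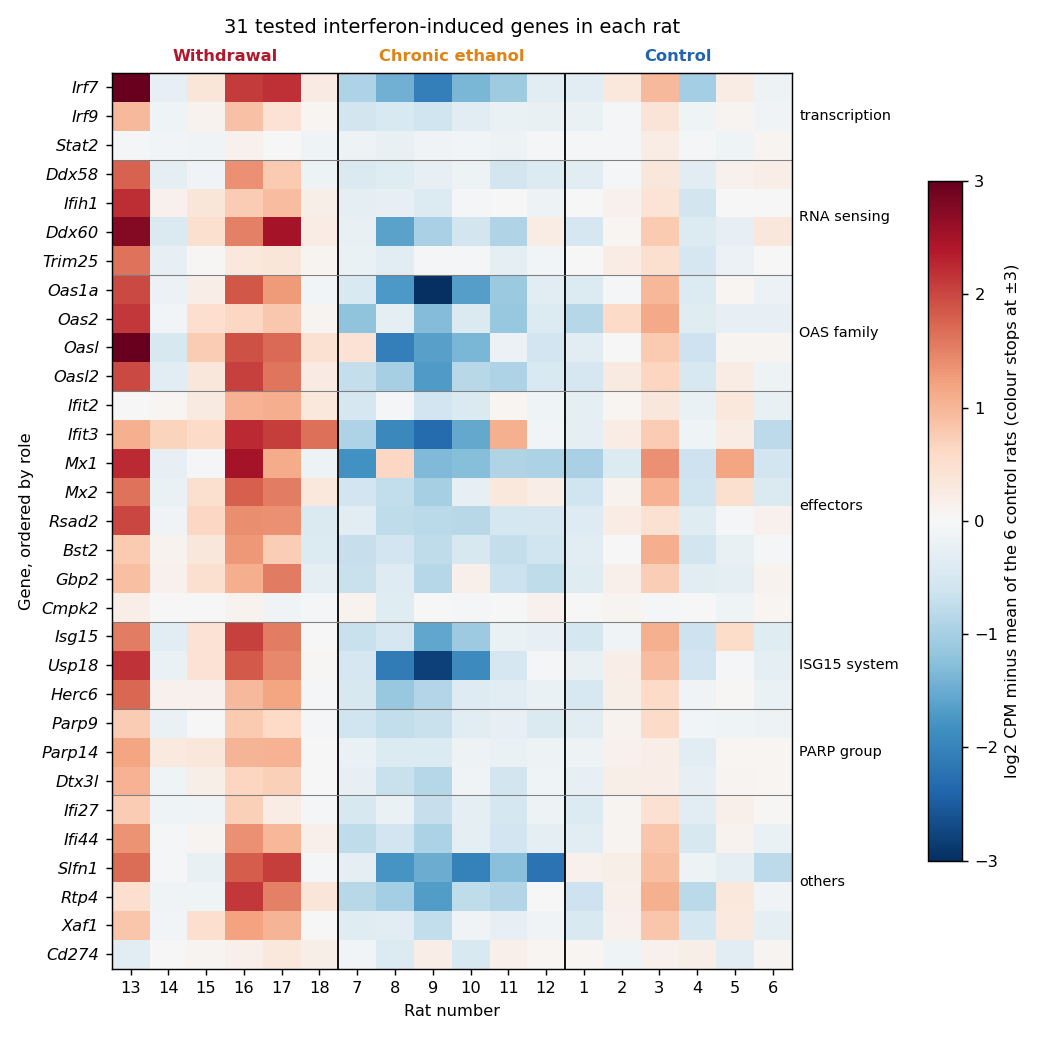
Colour gives the log2 CPM of each tested gene (rows, by role) in each rat (columns), minus the mean of the 6 control rats for that gene; red is higher, blue lower, and the colour stops at 3 in either direction. Withdrawal rats 13, 16 and 17 are red in most rows, withdrawal rats 14, 15 and 18 are pale, chronic ethanol rats 8 and 9 are the bluest, and control rat 3 is red in most rows.

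Between withdrawal and control, the genes lay higher in withdrawal by a smaller median amount, and mostly in 3 of its 6 rats. The log2 change was above 0 for 30 of 31 genes (53.7% of all genes), Stat2 being the exception at -0.04. The median was 0.78 and the range -0.04 to 3.06, beside a median of 0.01 over all genes. In 0 of the 31 genes did all withdrawal rats lie above all control rats (0.221% of all genes). EdgeR called 0 genes at 0.05 or at 0.10 (0% of all genes at either level), with adjusted p from 0.302 to 0.905, while 21 had an unadjusted p under 0.05, all higher (6.24% of all genes). DESeq2 called 1, Parp14, at an adjusted p of 0.0374 (0.0817% of the genes it tested were called higher). Over the alternatives its adjusted p in this comparison ran from 0.0374 to 0.793.

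Between chronic ethanol and control, the genes lay lower in chronic ethanol. The log2 change was below 0 for 31 of 31 genes (51.3% of all genes), with a median of -0.55 and a range of -1.89 to -0.02, and a median over all genes that rounds to 0. Irf9 alone did not overlap between the groups, with 6 of 6 chronic ethanol rats below every control rat (0.408% of all genes were lower without overlap). The margin was narrow: the highest chronic ethanol rat had 22.39 CPM and the lowest control rat 22.46 CPM. EdgeR called 0 genes at 0.05 (0% of all genes) and 0 at 0.10 (0.00567% of all genes), with adjusted p from 0.646 to 0.999. An unadjusted p under 0.05 was found for 14 genes, all lower (2.74% of all genes), and DESeq2 called 0 (0.0961% of the genes it tested were called lower). Each pair of these comparisons shares a group: the control rats stand in both comparisons with control, the chronic ethanol rats in both that involve chronic ethanol, and the withdrawal rats in both that involve withdrawal. A test of any difference among the 3 groups called 0 of 31 with edgeR (0% of all genes), with 28 at an unadjusted p under 0.05 (11.5% of all genes), and 25 with DESeq2 (1.42%).

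**Figure D2:**
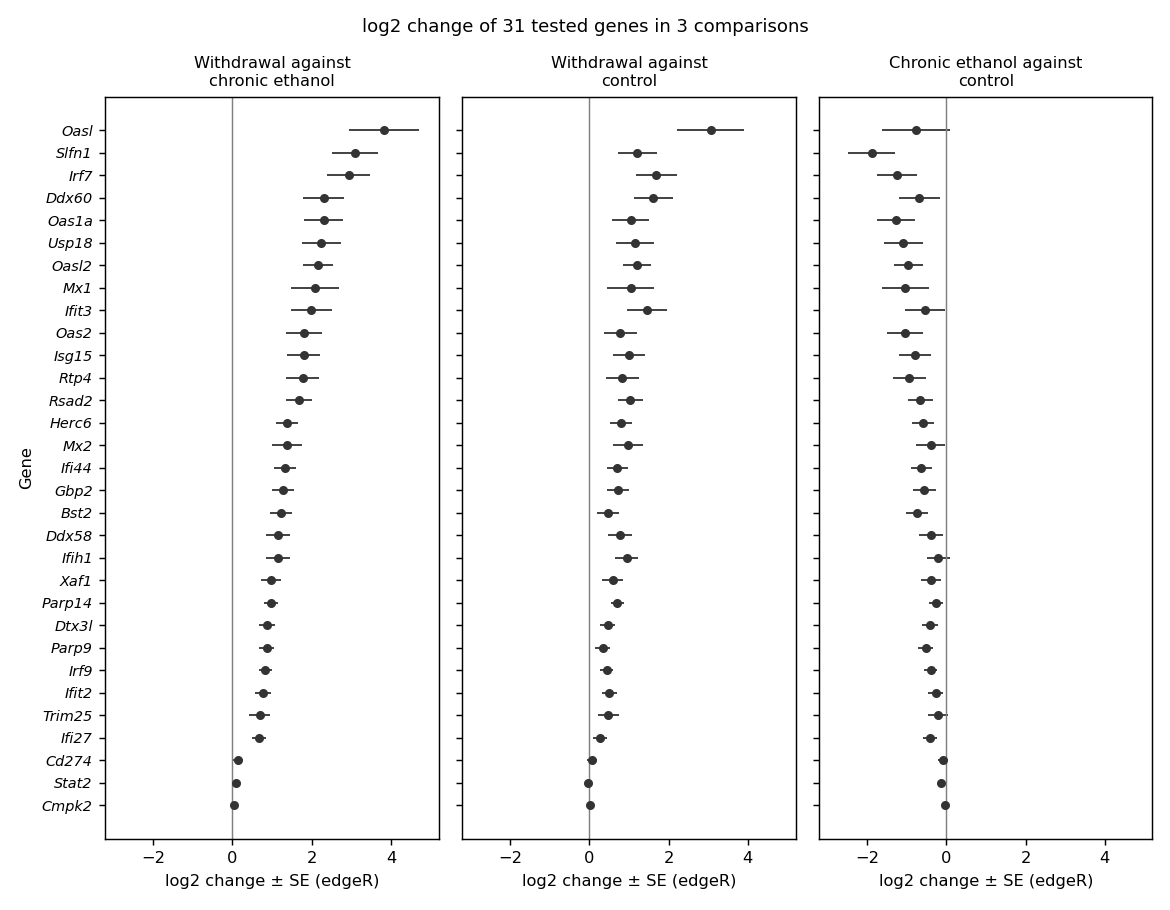
Points are the edgeR log2 changes of the 31 tested genes (rows, ordered by the change in withdrawal against chronic ethanol) and bars are 1 SE on each side, for withdrawal against chronic ethanol, withdrawal against control, and chronic ethanol against control. All 31 points lie right of 0 in the left panel, 30 do in the middle panel, and all 31 lie left of 0 in the right panel, with Cd274, Stat2 and Cmpk2 closest to 0 in the left panel.

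Among the transcription factors, Irf7 differed most and Stat2 least. Irf7 drives the amplifying wave of interferon production (gene 293624, Rnor_6.0 chr1:214249388-214252909, minus strand). Irf7 had lowest, median and highest levels of 5.07, 16.8 and 53.5 CPM in withdrawal, 1.41, 2.57 and 4.81 CPM in chronic ethanol and 2.97, 6.19 and 11.8 CPM in control. The 3 values for each group stand in this order for the other genes too. Every withdrawal rat lay above every chronic ethanol rat, rats 13, 16 and 17 lay above every control rat, and 4 of 6 chronic ethanol rats lay below every control rat. Mean Irf7 was 21.2 ± 18.7 CPM in withdrawal, 2.78 ± 1.16 in chronic ethanol and 6.57 ± 3.03 in control (SD, n = 6 each). For Irf7 the log2 change was 2.93 ± 0.53 for withdrawal against chronic ethanol, 1.69 ± 0.51 for withdrawal against control and -1.24 ± 0.51 for chronic ethanol against control, with edgeR adjusted p of 0.0709, 0.363 and 0.834. The SD in withdrawal was several times that in the other groups. Without rat 13, which had the 53.5 CPM, the log2 change of Irf7 in withdrawal against control was 1.16. Irf9, a DNA-binding partner of STAT2, had lowest, median and highest levels of 23.3, 31.2 and 50.2 CPM in withdrawal, 17.0, 19.6 and 22.4 in chronic ethanol and 22.5, 24.4 and 33.4 in control, so that chronic ethanol overlapped neither other group. Its log2 change was 0.83 ± 0.17 for withdrawal against chronic ethanol (edgeR adjusted p = 0.0733) and -0.39 ± 0.17 for chronic ethanol against control (adjusted p = 0.837). Stat2 had medians of 59.2 CPM in withdrawal, 56.9 in chronic ethanol and 60.3 in control, and its groups overlapped in all 3 comparisons.

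The cytosolic RNA sensors lay higher in withdrawal than in chronic ethanol, by amounts that differed from gene to gene. Ddx60, a helicase linked to RIG-I signalling (gene 100360801, Rnor_6.0 chr16:29816144-29936220, minus strand), was scarce. Ddx60 had 0.513, 1.56 and 5.12 CPM in withdrawal, 0.198, 0.411 and 0.843 CPM in chronic ethanol and 0.484, 0.664 and 1.27 CPM in control. Rats 13, 16 and 17 lay above every control rat and the groups overlapped. Mean Ddx60 was 2.31 ± 1.95 CPM in withdrawal, 0.466 ± 0.228 in chronic ethanol and 0.753 ± 0.300 in control (SD, n = 6 each). For Ddx60 the log2 change was 2.30 ± 0.52 for withdrawal against chronic ethanol, 1.62 ± 0.50 for withdrawal against control and -0.69 ± 0.52 for chronic ethanol against control, with edgeR adjusted p of 0.0861, 0.378 and 0.985. Ddx58, which encodes the sensor RIG-I, had medians of 12.0 CPM in withdrawal, 6.83 in chronic ethanol and 9.29 in control, with a log2 change of 1.16 ± 0.30 in withdrawal against chronic ethanol (edgeR adjusted p = 0.123). Without rat 13 that log2 change was 0.84. In withdrawal against control the log2 change of Ddx58 was 0.46 without rat 13, beside 0.78 with it. Ifih1, which encodes MDA5, a sensor of long double-stranded RNA, had medians of 8.49 CPM in withdrawal, 4.95 in chronic ethanol and 5.76 in control. For Ifih1 all withdrawal rats (6.22 CPM or more) lay above all chronic ethanol rats (5.79 CPM or less), and its log2 change was 1.15 ± 0.29 (adjusted p = 0.123). Rat 13 had 26.4 CPM of Ifih1, and without it that log2 change was 0.68. Trim25, the ubiquitin ligase that acts on RIG-I, was also highest in rat 13: that rat had 21.1 CPM, against 5.70 to 8.76 CPM in the other withdrawal rats, and without it the log2 change in withdrawal against chronic ethanol was 0.30, beside 0.68 with it.

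The oligoadenylate synthetases, which answer double-stranded RNA by making the messenger that activates RNase L, and their relatives included the lowest p of the comparison of withdrawal with chronic ethanol. Oasl2 (gene 304549, Rnor_6.0 chr12:47470074-47483131, minus strand) showed it. Oasl2 had 6.64, 18.0 and 34.4 CPM in withdrawal, 2.54, 4.53 and 6.05 CPM in chronic ethanol and 5.89, 8.59 and 13.0 CPM in control. All withdrawal rats lay above all chronic ethanol rats, and rats 13, 16 and 17 lay above all control rats. Mean Oasl2 was 20.0 ± 12.4 CPM in withdrawal, 4.47 ± 1.16 in chronic ethanol and 8.68 ± 2.76 in control (SD, n = 6 each). For Oasl2 the log2 change was 2.16 ± 0.37 for withdrawal against chronic ethanol, 1.20 ± 0.36 for withdrawal against control and -0.96 ± 0.36 for chronic ethanol against control, with edgeR adjusted p of 0.0709, 0.363 and 0.818. Oas1a (gene 192281, Rnor_6.0 chr12:41200680-41211393, plus strand) gave a like order. Oas1a had 2.14, 4.35 and 9.62 CPM in withdrawal, 0.216, 0.911 and 1.93 CPM in chronic ethanol and 1.80, 2.23 and 4.84 CPM in control. Withdrawal did not overlap chronic ethanol, and 5 of 6 chronic ethanol rats lay below every control rat. Mean Oas1a was 5.28 ± 3.39 CPM in withdrawal, 1.07 ± 0.659 in chronic ethanol and 2.57 ± 1.15 in control (SD, n = 6 each). For Oas1a the log2 change was 2.30 ± 0.49 for withdrawal against chronic ethanol, 1.04 ± 0.47 for withdrawal against control and -1.26 ± 0.48 for chronic ethanol against control, with edgeR adjusted p of 0.0792, 0.49 and 0.818. Rat genomes carry several close copies of Oas1, and pairs that match several copies may be missing from the counts, so its level may be too low.

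Oasl, a relative that lacks synthetase activity in humans (gene 304545, Rnor_6.0 chr12:47444138-47456680, minus strand), had the largest log2 change of the 31 genes in both comparisons of withdrawal. Oasl had 0.542, 2.02 and 32.4 CPM in withdrawal, 0.149, 0.389 and 1.07 CPM in chronic ethanol and 0.494, 0.807 and 1.39 CPM in control. Rat 13 alone had 32.4 CPM, and the next highest rat, withdrawal rat 16, had 3.08 CPM. Mean Oasl was 6.86 ± 12.6 CPM in withdrawal, 0.482 ± 0.350 in chronic ethanol and 0.823 ± 0.310 in control (SD, n = 6 each). For Oasl the log2 change was 3.83 ± 0.88 for withdrawal against chronic ethanol, 3.06 ± 0.85 for withdrawal against control and -0.76 ± 0.85 for chronic ethanol against control, with edgeR adjusted p of 0.0953, 0.349 and 0.999. Without rat 13 its log2 change was 1.85 for withdrawal against chronic ethanol and 1.09 for withdrawal against control, and without ethanol rat 7 it was -1.15 for chronic ethanol against control. Oas2 had medians of 0.656 CPM in withdrawal, 0.233 in chronic ethanol and 0.354 in control, and withdrawal did not overlap chronic ethanol. Its log2 change there was 1.81 ± 0.45 (edgeR adjusted p = 0.119), on counts of 6 to 76 per rat. Rat 13 had the 76 counts, and without that rat the log2 change of Oas2 was 1.31. In withdrawal against control the log2 change of Oas2 was 0.28 without rat 13, beside 0.78 with it.

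**Figure D3:**
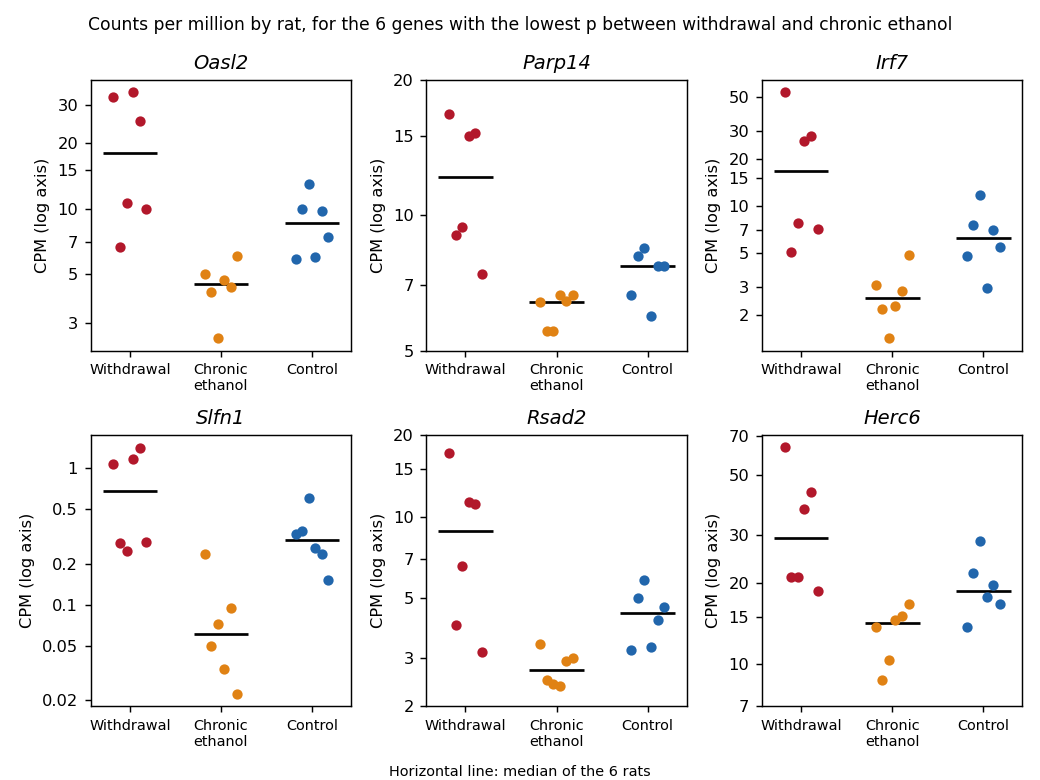
Each point is 1 rat and the vertical axis gives CPM on a log scale, for the 6 genes with the lowest p in withdrawal against chronic ethanol; lines are group medians. In each panel withdrawal rats 13, 16 and 17 lie above every control rat and above the other withdrawal rats, the chronic ethanol group has the lowest median, and of the 6 genes Rsad2 alone overlaps between withdrawal and chronic ethanol.

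Among the direct effectors, Rsad2 and Bst2 met the rule for full values. Rsad2 encodes viperin, which makes a chain-terminating nucleotide (gene 65190, Rnor_6.0 chr6:45655947-45669083, minus strand). Rsad2 had 3.17, 8.87 and 17.2 CPM in withdrawal, 2.38, 2.72 and 3.38 CPM in chronic ethanol and 3.23, 4.41 and 5.85 CPM in control. Withdrawal rat 18 had the lowest value of its group and lay within the chronic ethanol range, and 5 of 6 withdrawal rats lay above all chronic ethanol rats. Mean Rsad2 was 8.91 ± 5.34 CPM in withdrawal, 2.77 ± 0.402 in chronic ethanol and 4.37 ± 1.01 in control (SD, n = 6 each). For Rsad2 the log2 change was 1.69 ± 0.32 for withdrawal against chronic ethanol, 1.03 ± 0.32 for withdrawal against control and -0.66 ± 0.32 for chronic ethanol against control, with edgeR adjusted p of 0.0733, 0.373 and 0.863. Bst2 encodes tetherin, which holds budding virus at the cell surface (gene 378947, Rnor_6.0 chr16:19938781-19942353, minus strand). Bst2 had 5.36, 10.4 and 17.7 CPM in withdrawal, 4.19, 4.56 and 5.12 CPM in chronic ethanol and 4.89, 6.55 and 15.2 CPM in control. Withdrawal did not overlap chronic ethanol, and control rat 3 had 15.2 CPM, against 4.89 to 7.19 CPM in the other control rats. Mean Bst2 was 10.6 ± 4.33 CPM in withdrawal, 4.58 ± 0.342 in chronic ethanol and 7.68 ± 3.77 in control (SD, n = 6 each). For Bst2 the log2 change was 1.22 ± 0.28 for withdrawal against chronic ethanol, 0.47 ± 0.27 for withdrawal against control and -0.75 ± 0.27 for chronic ethanol against control, with edgeR adjusted p of 0.087, 0.55 and 0.804. Its log2 change in withdrawal against control was 0.78 without control rat 3 and 0.26 without withdrawal rat 16.

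Mx1, Mx2, Ifit2, Ifit3 and Gbp2 had the highest median in withdrawal and the lowest in chronic ethanol, with overlap between the groups. The GTPases Mx1 and Mx2, which trap viral nucleocapsids, had log2 changes in withdrawal against chronic ethanol of 2.08 ± 0.61 and 1.38 ± 0.37 (edgeR adjusted p = 0.163 and 0.135). Mx1 had medians of 4.00 CPM in withdrawal, 1.15 in chronic ethanol and 1.78 in control. Mx2 had medians of 33.9 CPM in withdrawal, 12.0 in chronic ethanol and 14.4 in control. Ifit2 and Ifit3, which bind RNA and restrain translation, gave log2 changes of 0.78 ± 0.20 and 1.99 ± 0.51 (adjusted p = 0.123 for both). Ifit3 varied widely within chronic ethanol, where rat 11 had 7.79 CPM and the median was 1.58 CPM. Gbp2, a guanylate-binding protein that coats vacuoles of microbes, had medians of 11.7 CPM in withdrawal, 4.50 in chronic ethanol and 6.76 in control and a log2 change of 1.27 ± 0.28 (adjusted p = 0.0861). Cmpk2, a mitochondrial nucleotide kinase encoded beside Rsad2, had medians of 39.1 CPM in withdrawal, 39.5 in chronic ethanol and 39.9 in control. Its log2 change was 0.05 ± 0.07 in withdrawal against chronic ethanol, 0.03 ± 0.07 against control and -0.02 ± 0.07 in chronic ethanol against control.

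In the ISG15 system, Herc6, in mice the main ligase that joins ISG15 to proteins (gene 362376, Rnor_6.0 chr4:88606851-88649424, minus strand), met the rule. Herc6 had 18.6, 29.3 and 63.5 CPM in withdrawal, 8.72, 14.1 and 16.7 CPM in chronic ethanol and 13.8, 18.6 and 28.4 CPM in control. All withdrawal rats lay above all chronic ethanol rats. Mean Herc6 was 34.2 ± 17.6 CPM in withdrawal, 13.2 ± 3.03 in chronic ethanol and 19.7 ± 5.07 in control (SD, n = 6 each). For Herc6 the log2 change was 1.38 ± 0.28 for withdrawal against chronic ethanol, 0.80 ± 0.28 for withdrawal against control and -0.58 ± 0.28 for chronic ethanol against control, with edgeR adjusted p of 0.0733, 0.418 and 0.86. Without rat 13 the log2 change of Herc6 in withdrawal against control was 0.52. Isg15 itself had medians of 5.50 CPM in withdrawal, 1.69 in chronic ethanol and 2.19 in control and a log2 change of 1.80 ± 0.42 in withdrawal against chronic ethanol (edgeR adjusted p = 0.0953). Usp18, which removes ISG15 and dampens receptor signalling, had medians of 7.81 CPM in withdrawal, 1.81 in chronic ethanol and 3.46 in control, with a log2 change of 2.25 ± 0.50 (adjusted p = 0.0861). In both, 5 of 6 withdrawal rats lay above all chronic ethanol rats.

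The ADP-ribosylating group gave log2 changes of 0.86 to 0.97 in withdrawal against chronic ethanol. Parp14, a mono-ADP-ribosyltransferase (gene 303903, Rnor_6.0 chr11:68105442-68137509, plus strand), had the lowest p of the 31 genes between withdrawal and control. Parp14 had 7.40, 12.2 and 16.8 CPM in withdrawal, 5.53, 6.42 and 6.66 CPM in chronic ethanol and 5.96, 7.71 and 8.46 CPM in control. All withdrawal rats lay above all chronic ethanol rats, and 5 of 6 lay above all control rats. Mean Parp14 was 12.1 ± 3.97 CPM in withdrawal, 6.20 ± 0.528 in chronic ethanol and 7.43 ± 0.942 in control (SD, n = 6 each). For Parp14 the log2 change was 0.97 ± 0.18 for withdrawal against chronic ethanol, 0.71 ± 0.17 for withdrawal against control and -0.26 ± 0.17 for chronic ethanol against control, with edgeR adjusted p of 0.0709, 0.302 and 0.967. Parp9, which works in a complex with Dtx3l (gene 303905, Rnor_6.0 chr11:67724071-67758027, minus strand), lay lowest in chronic ethanol. Parp9 had 11.9, 17.2 and 23.5 CPM in withdrawal, 8.18, 9.60 and 11.5 CPM in chronic ethanol and 10.9, 12.7 and 20.5 CPM in control. Withdrawal did not overlap chronic ethanol, and 4 of 6 chronic ethanol rats lay below all control rats. Mean Parp9 was 17.7 ± 5.34 CPM in withdrawal, 9.76 ± 1.36 in chronic ethanol and 14.0 ± 3.44 in control (SD, n = 6 each). For Parp9 the log2 change was 0.86 ± 0.19 for withdrawal against chronic ethanol, 0.34 ± 0.19 for withdrawal against control and -0.52 ± 0.19 for chronic ethanol against control, with edgeR adjusted p of 0.0842, 0.541 and 0.78. Dtx3l, the ubiquitin ligase of that complex, had medians of 4.67 CPM in withdrawal, 2.65 in chronic ethanol and 3.65 in control and a log2 change of 0.88 ± 0.20 in withdrawal against chronic ethanol (adjusted p = 0.087).

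Of the remaining genes, Slfn1, a member of the schlafen family that restrains T cell growth in mice (gene 688900, Rnor_6.0 chr10:70393879-70400340, plus strand), was scarce. Slfn1 had 0.246, 0.680 and 1.42 CPM in withdrawal, 0.0222, 0.0607 and 0.234 CPM in chronic ethanol and 0.152, 0.297 and 0.608 CPM in control. That rests on 9 to 50 counts per withdrawal rat, 1 to 9 per chronic ethanol rat and 6 to 21 per control rat. Slfn1 passed the filter through withdrawal and control rats only, so its values are descriptions. Withdrawal did not overlap chronic ethanol, and 5 of 6 chronic ethanol rats lay below all control rats. Mean Slfn1 was 0.748 ± 0.532 CPM in withdrawal, 0.0843 ± 0.0779 in chronic ethanol and 0.323 ± 0.157 in control (SD, n = 6 each). For Slfn1 the log2 change was 3.10 ± 0.58 for withdrawal against chronic ethanol, 1.21 ± 0.50 for withdrawal against control and -1.89 ± 0.60 for chronic ethanol against control, with edgeR adjusted p of 0.0733, 0.464 and 0.646. Ifi27 (gene 170512) had medians of 96.9 CPM in withdrawal, 70.5 in chronic ethanol and 95.3 in control and a log2 change of 0.66 ± 0.18 in withdrawal against chronic ethanol (edgeR adjusted p = 0.134). Ifi44, which restrains cell growth, had medians of 19.0 CPM in withdrawal, 8.21 in chronic ethanol and 11.8 in control and a log2 change of 1.33 ± 0.28 (adjusted p = 0.0733). Xaf1, which binds the apoptosis inhibitor XIAP, gave 0.98 ± 0.25 (adjusted p = 0.125), and Rtp4, a receptor chaperone, gave 1.77 ± 0.42 (adjusted p = 0.107). Ifi27, Ifi44 and Xaf1 did not overlap between withdrawal and chronic ethanol, and Rtp4 did. Cd274, the checkpoint ligand PD-L1, had medians of 15.8 CPM in withdrawal, 14.6 in chronic ethanol and 15.5 in control and a log2 change of 0.14 ± 0.13 (adjusted p = 0.602), with overlap in all 3 comparisons. The promoter windows of Stat2, Cmpk2 and Cd274, closest to 0 in withdrawal against chronic ethanol, lacked the motif. So did those of Irf9, Herc6, Parp9, Oasl, Mx1 and Trim25, while the windows of Irf7, Oasl2 and Bst2 printed earlier hold it. Whether the motif goes with the size of a change was not tested.

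The withdrawal rats were unlike one another. Rats 13, 16 and 17 exceeded every control rat in 25, 27 and 24 of the 31 genes, while rats 14, 15 and 18 did so in 1, 2 and 1. Of all 17637 tested genes, rats 13, 16 and 17 exceeded every control rat in 36.2%, 9.88% and 18.2%, and rats 14, 15 and 18 in 10.4%, 11.3% and 12.8%. The median gene of rats 13, 16 and 17 lay 1.53, 1.30 and 1.09 on the log2 scale above the control mean, and that of rats 14, 15 and 18 differed from it by -0.11, 0.26 and 0.02. The highest value of all 18 rats fell in rat 13 for 16 genes, in rat 16 for 10 and in rat 17 for 4 (31.4%, 1.38% and 7.43% of all genes). Rats 14, 15 and 18 lay above every chronic ethanol rat in 15, 25 and 23 genes (14.5%, 12.9% and 11.4% of all genes). The control rats did so in 4 to 28 genes (11% to 23% of all genes). The withdrawal rats were set side by side after their values were seen, and no test was made between them.

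Chronic ethanol rats lay below every control rat in 7 (rat 12) to 25 (rat 9) of the 31 genes, and rat 9 had the lowest value of all 18 in 17. Of all genes, rats 12 and 9 lay below every control rat in 15.5% and 15.6%, and rat 9 was the lowest of all 18 in 3.74%. Control rats were also unequal: rat 3 lay above every chronic ethanol rat in 28 genes and rats 1 and 4 in 4 each (16.9%, 13.9% and 11% of all genes). Control rats 2, 5 and 6 did so in 23, 22 and 17 genes (13.2%, 23% and 11.2% of all genes). The mean log2 CPM over the 31 genes was 3.30 ± 0.68 in withdrawal, with a range of 2.53 to 4.09. In chronic ethanol it was 2.01 ± 0.27, with a range of 1.57 to 2.32, and in control 2.62 ± 0.38, with a range of 2.24 to 3.28 (SD, n = 6 each). By this summary withdrawal did not overlap chronic ethanol, and control overlapped both.

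**Figure D4:**
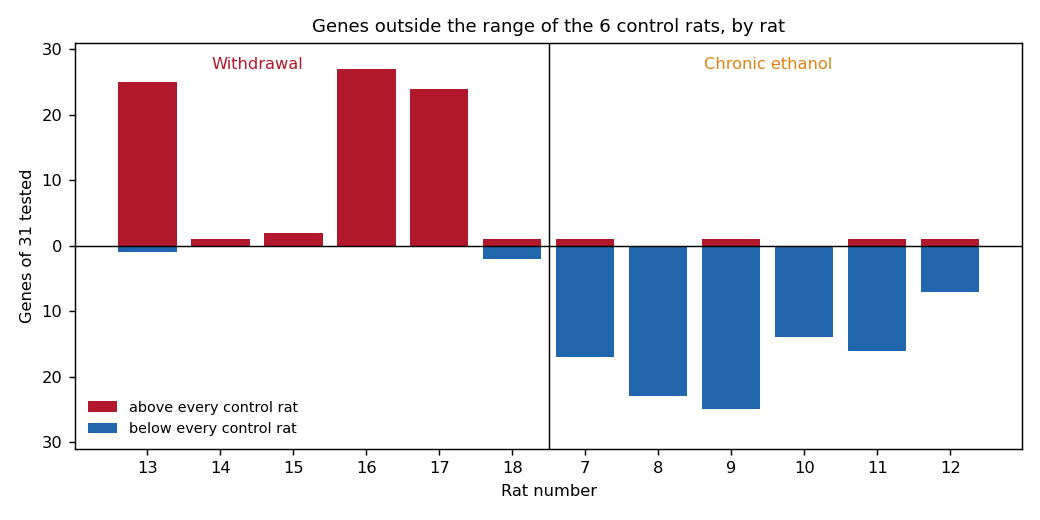
Bars give, for each withdrawal and chronic ethanol rat, how many of the 31 tested genes lay above every control rat (upward) and below every control rat (downward). Withdrawal rats 13, 16 and 17 reach 25, 27 and 24 genes upward, the other withdrawal rats at most 2, and the chronic ethanol rats reach 7 to 25 genes downward.

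Without rats 3 and 13, edgeR called 4 of the 31 genes in withdrawal against chronic ethanol (0.124% of all genes were called higher): Irf7 at a log2 change of 2.40 ± 0.44 (adjusted p = 0.047), Oasl2 at 1.96 ± 0.36 (0.047), Bst2 at 1.17 ± 0.22 (0.047) and Parp14 at 0.85 ± 0.16 (0.0471). In the same 16 rats none of the 4 was called in withdrawal against control (adjusted p = 0.376, 0.379, 0.364 and 0.32, in this order). Leaving out rat 13 alone gave 1 call, Oasl2, at 1.96 ± 0.37 (adjusted p = 0.0482; 0.0563% of all genes), and leaving out rat 3 alone gave 0 (0.00563% of all genes). Leaving out withdrawal rat 14 gave 1 call, Oasl2 (0.00562% of all genes). Leaving out withdrawal rat 18 gave 7: Irf7, Oasl2, Rsad2, Gbp2, Parp14, Slfn1 and Herc6 (0.101% of all genes). Of these, Slfn1 reached the filter level in withdrawal and control rats only. Leaving out ethanol rat 11 gave 1, Ifit3 (0.0338% of all genes). All these calls were higher in withdrawal. Over all alternatives run, the adjusted p in this comparison ran up to 0.261 for Irf7, Oasl2, Bst2 and Parp14. The lowest values were those of DESeq2 on all 18 rats: 7.1e-06 for Irf7, 7.1e-06 for Oasl2, 0.003 for Bst2 and 0.000141 for Parp14. The median over the 31 genes in this comparison was 1.18 without both rats, 1.18 without rat 13 and 1.33 without rat 3. In withdrawal against control the median was 0.76 without both, 0.59 without rat 13 and 0.93 without rat 3, with 0 calls in each of these fits. In chronic ethanol against control it was -0.38 without both or without rat 3, beside -0.55 with all rats, with 0 calls. For Bst2 in that comparison, the log2 change was -0.44 ± 0.22 without rat 3, beside -0.75 ± 0.27 with all rats. Without rats 5, 8, 13 and 17 the median was 0.99 in withdrawal against chronic ethanol and 0.47 in withdrawal against control. It was -0.51 in chronic ethanol against control. EdgeR called 0 of the 31 genes in each, and 27, 3 and 14 had an unadjusted p under 0.05. The share of all genes at that unadjusted level was not taken in this fit, so these counts stand without a background. With 1 rat left out, the log2 change of 6 genes moved by over 1.5 times in withdrawal against chronic ethanol, that of 13 in withdrawal against control and that of 12 in chronic ethanol against control, Cmpk2 and Cd274 among them in each. Rat 13 did so for 9 genes and rat 16 for 7 in withdrawal against control, and in chronic ethanol against control rat 3 did so for 9. Without rat 13 the change against control was 0.48 for Ifih1 (0.94 with all rats), 0.09 for Trim25 (0.48) and 0.14 for Ifi27 (0.26). Of those 9 genes only Cd274 moved away from 0 (0.13 beside 0.06). Without rat 3 the change in chronic ethanol against control was -0.12 for Mx2 (-0.40 with all rats), -0.18 for Xaf1 (-0.39) and -0.50 for Isg15 (-0.79). All 9 of these genes moved towards 0.

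The group medians were also followed within the first index of the libraries, as read from their names, which splits the rats in part by group. Rats 9 to 16 share an index, and within it the 4 withdrawal and 4 chronic ethanol rats gave a median difference of 1.20, with 30 genes higher in withdrawal and 1 lower. Within the index of rats 1 to 8, the 2 chronic ethanol and 6 control rats gave -0.59, with 31 of 31 genes lower in chronic ethanol. Withdrawal rats 17 and 18 carry a further index, which held no other rats. No index held both withdrawal and control rats. Only the chronic ethanol rats, which lie in the indexes of rats 1 to 8 and 9 to 16, link them. Once the index is a term, the changes of withdrawal rest on the 4 withdrawal rats that share an index with chronic ethanol rats. Rats 17 and 18 do not inform them. With the index as a term the median change in withdrawal against control was 0.61, beside 0.78 without it, and edgeR called 0 of the 31 genes. In that fit 3 genes had an unadjusted p under 0.05, beside 21 without the term. The share of all genes at that unadjusted level was not taken with the term.

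The rest of the interferon pathway was read from lists of genes other than the 33, all counted in the same fit. The counts below stand beside these shares of all tested genes. At an unadjusted p under 0.05, 9.38% lay higher in withdrawal against chronic ethanol and 6.24% higher in withdrawal against control. At that level 2.74% lay lower in chronic ethanol against control. The shares in the opposite directions are not given. DESeq2 called 0.923% of the genes it tested higher in withdrawal against chronic ethanol. Of 11 interferon genes, the ligands, 10 were matched and 0 passed the filter; Ifna4 had the highest single value, 0.272 CPM in a control rat, and Ifng was at 0 in all 18 libraries. Of 11 receptor, kinase and STAT genes, edgeR called 0 in any comparison. In withdrawal against chronic ethanol 10 of 11 lay higher (median log2 change 0.13), 4 had an unadjusted p under 0.05, and DESeq2 called 1. At an unadjusted p under 0.05 there were 0 genes in withdrawal against control and 1, lower, in chronic ethanol against control, and DESeq2 called 0 in both. The kinase Tyk2, which is bound to interferon receptors, had a log2 change in withdrawal against chronic ethanol of 0.19 ± 0.07 (edgeR adjusted p = 0.222).

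A list of 22 tested genes covered nucleic acid sensing upstream of interferon: sensors together with adaptors, kinases and transcription factors. EdgeR called 0 of them in any comparison. In withdrawal against chronic ethanol 16 lay higher, with a median of 0.13, and 5 had an unadjusted p under 0.05, all higher. At that level 1 lay higher and 1 lower in withdrawal against control, and 3 lay lower in chronic ethanol against control, with 0 DESeq2 calls in both. In withdrawal against chronic ethanol DESeq2 called 1, Dhx58, which encodes the RIG-I relative LGP2. Dhx58 had 5.39, 6.52 and 14.9 CPM in withdrawal, 2.85, 4.60 and 4.77 CPM in chronic ethanol and 4.83, 6.12 and 8.31 CPM in control. Chronic ethanol overlapped neither other group, and the log2 change was 1.03 ± 0.24 in withdrawal against chronic ethanol (edgeR adjusted p = 0.0953) and -0.56 ± 0.24 in chronic ethanol against control (adjusted p = 0.834). Aim2, a sensor of cytosolic DNA, had a different order: its medians were 1.09 CPM in withdrawal, 0.923 in chronic ethanol and 1.85 in control, with log2 changes of 0.12, -0.68 and -0.80 for withdrawal against chronic ethanol, withdrawal against control and chronic ethanol against control (adjusted p = 0.813, 0.403 and 0.464). Of 18 negative regulators, edgeR called 0 in any comparison, and 14 lay higher in withdrawal than in chronic ethanol with a median of 0.09. At an unadjusted p under 0.05, 3 lay higher and 2 lower in withdrawal against chronic ethanol, 4 higher and 1 lower in withdrawal against control, and 1 higher and 1 lower in chronic ethanol against control. DESeq2 called 0 in both comparisons with control, and in withdrawal against chronic ethanol 1, Nlrc5, which also activates antigen presentation genes, at an edgeR log2 change of 0.87 ± 0.24 (edgeR adjusted p = 0.146). Rnaseh2a, a subunit of an enzyme that removes RNA from DNA, gave -0.25 ± 0.08 (adjusted p = 0.173).

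Another 48 tested interferon-induced genes, 1 of them also in the list of receptors and kinases, had the next highest median in withdrawal against chronic ethanol. In withdrawal against chronic ethanol 46 of 48 lay higher, with a median of 0.61, and edgeR called 0, while 38 had an unadjusted p under 0.05 and DESeq2 called 22, all higher. In withdrawal against control 45 lay higher, with a median of 0.30 and 13 at an unadjusted p under 0.05, and edgeR and DESeq2 each called 0. In chronic ethanol against control 2 lay higher, with a median of -0.30 and 11 at an unadjusted p under 0.05, all lower, and both tools again called 0. Ifi44l, a paralog of Ifi44, had lowest, median and highest levels of 2.11, 3.31 and 8.09 CPM in withdrawal, 0.770, 1.01 and 1.62 in chronic ethanol and 1.28, 1.99 and 3.80 in control. Its log2 change was 1.95 ± 0.37 in withdrawal against chronic ethanol (edgeR adjusted p = 0.0733), and that of Helz2, a helicase coactivator, was 0.81 ± 0.17 (adjusted p = 0.0789). Neither gene overlapped between these groups.

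**Figure D5:**
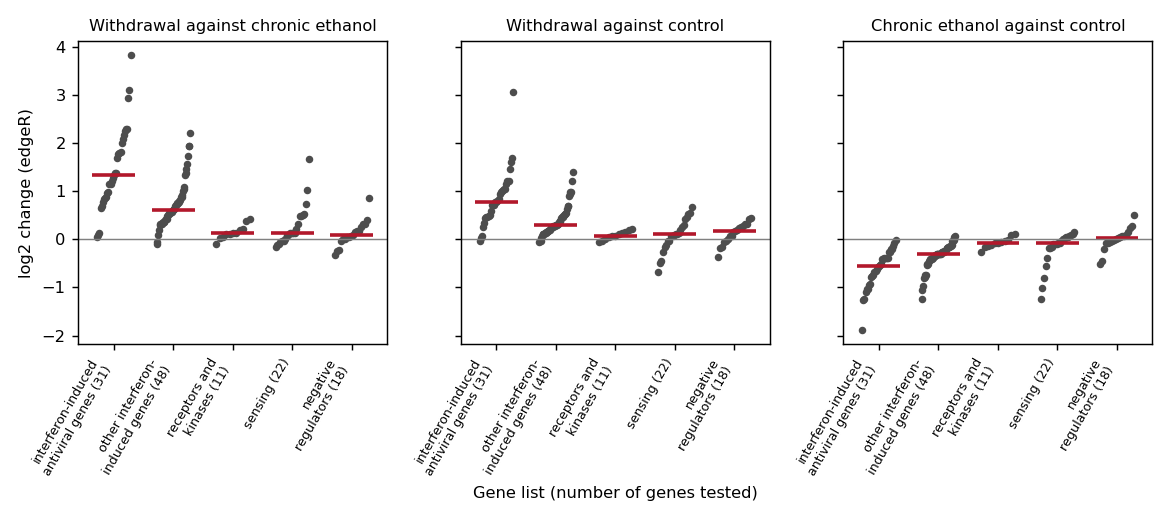
Points are edgeR log2 changes of single genes and red lines are list medians, for the interferon-induced antiviral genes, other interferon-induced genes, receptors and kinases, sensing genes and negative regulators, with the number of tested genes beside each list name. In withdrawal against chronic ethanol the medians are 1.33, 0.61, 0.13, 0.13 and 0.09.

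Markers of cell types that could carry these transcripts were summed in each library. The 12 microglia markers spanned 359 to 624 CPM in withdrawal, 414 to 761 in chronic ethanol and 479 to 601 in control, and 8 of 12 lay higher in withdrawal than in chronic ethanol (median log2 change 0.12). The 9 matched endothelium markers spanned 411 to 677 CPM in withdrawal, 531 to 684 in chronic ethanol and 445 to 649 in control, with 3 of 9 higher and a median of -0.08. The 8 astrocyte markers spanned 2687 to 6127 CPM in withdrawal, 3648 to 7634 in chronic ethanol and 4441 to 7139 in control, with 2 of 8 higher and a median of -0.20. In these 3 lists the groups overlapped. Of 11 T and NK cell markers 1 passed the filter, Cd4, which microglia of rats also express, at 7.99 to 21.8 CPM in the 18 rats. Of the others, Cd8a reached 1.88 CPM in withdrawal rat 13 and at most 0.301 CPM elsewhere, and the remaining 9 reached at most 0.377 CPM. Of the 5 matched markers of plasmacytoid dendritic cells, a strong source of interferon, Tcf4 and Bcl11a, which neurons also express, were tested. Siglech, Ptcra and Spib reached at most 0.0804, 0.643 and 0.188 CPM, each in rat 13.

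Some lists lay higher in withdrawal than in chronic ethanol. The 6 border macrophage markers spanned 14.6 to 18.6 CPM in withdrawal, 8.90 to 20.4 in chronic ethanol and 12.8 to 47.6 in control (highest in rat 3). Of these, 5 of 5 tested lay higher, with a median of 0.17. The 7 matched monocyte and neutrophil markers spanned 34.8 to 85.0 CPM in withdrawal, 30.4 to 51.4 in chronic ethanol and 32.3 to 91.9 in control, with 4 of 4 tested higher, a median of 0.50 and Ly6c at 0 in all libraries. Rat 13 had the 85.0 CPM, with at most 47.9 CPM in the other withdrawal rats, and control rat 3 had the 91.9 CPM. The 11 meningeal fibroblast markers spanned 209 to 390.3 CPM in withdrawal, 168 to 305 in chronic ethanol and 178 to 810.4 in control, with 9 of 9 tested higher, a median of 0.58 and Col1a2 and Ogn at 0 in all libraries. Here too the highest withdrawal value was that of rat 13 and the highest control value that of rat 3. Of 6 B and plasma cell markers 2 were tested, both higher, with a median of 1.24, and the sum of the 6 was 7.42 CPM in rat 13 and at most 1.89 CPM in the other 17 rats. Other lists lay lower. Of the 12 dopamine neuron markers 1 lay higher in withdrawal than in chronic ethanol (median -0.33) and 0 lay higher than in control (median -0.38). The 5 red blood cell markers spanned 93.5 to 175 CPM in withdrawal, 53.0 to 237 in chronic ethanol and 185 to 527 in control. Of these, 0 of 5 lay higher in withdrawal against control (median -1.36) and the sums did not overlap, while in chronic ethanol against control 5 of 5 lay lower (median -1.34) and the sums overlapped. The part of these lists in the differences of the interferon-induced genes was not tested. Of the 3 withdrawal rats with the highest values, rat 13 also held the pineal and choroid plexus markers, and rat 17 had the lowest dopamine neuron markers of all 18 rats. In rats 16 and 17 the pineal and choroid plexus markers summed to 10.1 and 7.16 CPM (pineal) and 16.6 and 23.8 CPM (choroid plexus).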

How the data were processed

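The deposited values are counts of read pairs per gene, 1 library per rat, with no normalisation. The authors made them with featureCounts 1.5.0 on the reverse strand, over exons summed by gene identifier, leaving out chimeric pairs, per the file headers. STAR 2.5.2a, R 3.3.3, limma and the build Rnor_6.0 are named in the submitters' processing notes. The command in the file headers has no option to count pairs that fit several places or several genes, and leaving these out can lower the counts of gene families. Symbols came from a RefSeq table of GRCr8, used for names only, and promoter windows from RefSeq of the same build. Of 38445 genes, 29322 were given a symbol. Of the symbols in the lists, 1 interferon ligand and 1 sensing gene matched no gene. The values of 1 gene of those lists are not reported here.

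Counts were scaled with TMM, and 17637 genes passed filterByExpr (for these libraries 0.260 CPM in 6 of them). All 18 rats entered 1 fit with edgeR 4.0.16 (R 4.3.3, quasi-likelihood F-test, robust off, common biological coefficient of variation 0.270). Tests were two-sided, p was adjusted by Benjamini-Hochberg over all 17637 genes, and a gene was called under 0.05. Each SE was taken back from F, as the absolute log2 change over its square root. Log2 CPM used a prior count of 2. No 2 rats of a group looked like 1 library (smallest chi-square per degree of freedom 12.5). The scripts were tested on simulated data.

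The 33 genes and all lists were chosen with earlier results of these data known. Full values were given for the 6 genes with the lowest p in each comparison, and for each pathway list the genes called or else the 2 with the lowest p. Promoters were those of tested genes with the motif, up to 6, by counts per length. The alternatives were RLE factors, no filter, a filter of 1 CPM in 6 libraries, robust fitting, DESeq2 1.42.0, the first index as a term, only the 2 groups compared, each rat left out, rats 3 and 13 left out, and rats 5, 8, 13 and 17 left out. An adjusted p under 0.10 was chosen after seeing the data.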

Additional observations from a re-analysis of the deposited data

Results flagged for a closer look

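Of 96 groups of 6 rats (31 genes and their mean log2 CPM, in 3 groups), 5 held a rat farther from the other 5 than Dixon's 95% limit allows, and chance flags about 5% of groups. Withdrawal rat 13 had the highest Trim25 of its group, at 21.1 CPM. Ethanol rat 8 had the highest Mx1 of its group, at 3.94 CPM, and the lowest Cmpk2, at 30.5 CPM. Control rat 3 had the highest Oas1a and Bst2 of its group, at 4.84 and 15.2 CPM. Rat 13 also held pineal gland markers and rat 3 stood apart in meningeal fibroblast and border macrophage markers, and their part in these values was not tested.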

How the results depend on the processing

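The median log2 change of the tested genes kept its direction in all alternatives. With 1 rat left out it ran from 1.18 to 1.45 in withdrawal against chronic ethanol, from 0.59 (without rat 13) to 0.93 (without rat 3) in withdrawal against control, and from -0.63 to -0.38 (without rat 3) in chronic ethanol against control. Without rats 5, 8, 13 and 17 the 3 medians were 0.99, 0.47 and -0.51, and with the first index as a term 1.34, 0.61 and -0.58. With that term, withdrawal rats 17 and 18, alone in their index, do not inform the changes of withdrawal. The number of genes called was less stable. In withdrawal against chronic ethanol it was 0 with edgeR, 17 at an adjusted p under 0.10 (an alternative chosen after seeing the data), 27 with DESeq2, 4 without rats 3 and 13, and 0 to 7 with 1 rat left out. In withdrawal against control it was 1 with DESeq2, and for any difference among the groups 25 with DESeq2. The causes were not tested. Of 2500 values for single genes under the alternatives, 2446 kept direction and side of the threshold, 42 passed it and 12 changed sign. With 0 genes called by edgeR on all rats, no call could be lost.

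Cmpk2 changed sign in chronic ethanol against control without rats 5, 8, 13 and 17 (0.010) and with 1 rat left out (-0.057 to 0.039). In withdrawal against control Cmpk2 was -0.067 with the index, -0.017 without rats 3 and 13, -0.015 without rats 5, 8, 13 and 17, and -0.0084 to 0.049 with 1 rat left out. In withdrawal against chronic ethanol Cmpk2 was -0.025 without rats 5, 8, 13 and 17 and -0.0094 to 0.078 with 1 rat left out. Cd274 was -0.27 in withdrawal against control and -0.030 in withdrawal against chronic ethanol with the index. In withdrawal against control Stat2 was 0.0088 without rats 3 and 13, and Trim25 -0.013 without rats 5, 8, 13 and 17. With only chronic ethanol and control, or withdrawal and chronic ethanol, in the fit, 30 of the genes passed the filter. Depth limits Slfn1 most, with under 10 counts in 9 rats, then Oas2 (5 rats), Oasl (3), and Oas1a and Ddx60 (1 each). No paired analysis was possible because no rat number is shared by groups.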

Other observations

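Chemokines that interferon induces to draw T cells were also looked at, after their values were seen. Cxcl10 had lowest, median and highest levels of 0.173, 1.27 and 2.89 CPM in withdrawal, 0.111, 0.341 and 0.359 CPM in chronic ethanol and 0.212, 0.442 and 1.36 CPM in control. Its log2 change was 2.21 in withdrawal against chronic ethanol (edgeR adjusted p = 0.122). Cxcl9 did not pass the filter and reached 3.03 CPM in 1 withdrawal rat, at most 0.0669 CPM in chronic ethanol and at most 0.172 CPM in control.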
